A study of Homo sapiens with 12 samples.

Results

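The 10 genes that release, pump, admit or regulate calcium were followed in 3 human carcinoma lines kept in normoxia or exposed to hypoxia. The members were taken by symbol: the inositol trisphosphate (IP3) receptors ITPR1, ITPR2 and ITPR3, the stanniocalcins STC1 and STC2, the pumps ATP2A2, ATP2B1 and ATP2B4, and the store-operated entry genes ORAI1 and STIM1. They are 10 of the 25369 genes in the table. ITPR1 was chosen by its measured counts in these libraries, which moved in opposite directions with hypoxia between lines, and the set was assembled around it, so its values are given as a description with no test. The direction of ITPR1 in each line is therefore not a finding.

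Poly(A)+ RNA was sequenced from RKO cells, a colon carcinoma line, A549 cells, a lung adenocarcinoma line, and H460 cells, a lung large cell carcinoma line. Each line was sampled in normoxia and after 24 h in 1% O2, with 2 libraries in each of the 6 groups and 12 libraries in all. The labels name no allele, transgene or drug in any group. RKO and A549 cells were grown in DMEM and H460 cells in RPMI, so for comparisons with H460 cells medium and line cannot be told apart, and colon is represented by 1 line. Total counts ranged from 27350424 to 41757584 per library. The line markers followed the labels in part. CDKN2A, which is deleted in A549 and H460 cells, had 0 reads in both. Of 6 colon markers, CDX2 alone stood above 2 reads in RKO cells. In A549 cells the colon markers CDH17, LGALS4 and VIL1 had 66 to 105, 23 to 61 and 1 to 6 reads. The lung secretory markers SFTPB, SFTPC and SCGB1A1 had at most 4 reads in any library of the lung lines. NAPSA had 133 to 179 reads in A549 cells, and NKX2-1 0 to 98 reads in H460 cells. Of the epithelial markers KRT18 had at least 3327 reads in every library, whereas CDH1 had 2 to 4 reads in RKO and 10 to 18 in H460 cells. Immune, endothelial and stromal markers had at most 3 reads anywhere. CA9, a carbonic anhydrase gene induced by low oxygen, rose by 4.45 ± 0.31, 5.65 ± 0.37 and 6.81 ± 0.28 on the log2 scale (± SE) in RKO, A549 and H460 cells (edgeR quasi-likelihood test, adjusted p = 3.74e-05, 0.000876 and 3.43e-09). All 7 hypoxia markers tested in RKO cells rose. In A549 cells 7 of 9 rose, and in H460 cells all 9 did.

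Cells keep cytosolic calcium low by pumping it into the endoplasmic reticulum through SERCA pumps and out across the plasma membrane through PMCA pumps. When phospholipase C makes IP3, the IP3 receptors open and release the stored calcium. STIM proteins sense the emptied store and open ORAI channels in the plasma membrane, which refills it. Stanniocalcins are secreted glycoproteins first known as calcium-regulating hormones of fish, and in mammalian cells both are known as stress-responsive genes.

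Low oxygen acts on many genes through hypoxia-inducible factors, which bind a core of ACGTG or GCGTG. The promoters of ITPR1, the gene with opposite directions, ATP2B4, which rose in RKO and H460 cells, and ATP2B1, which rose in H460 cells, are shown to place this core beside those responses. The windows are RefSeq reference sequence of GRCh38.p14, from 250 bases before to 30 bases after the annotated start, written 5′ to 3′ on the strand of the gene. Capitals mark either core on the strand shown, and its reverse complement (CACGT for the first and CACGC for the second), so that both strands are read. They are ITPR1 at chr3:4493098-4493377 (plus strand), ATP2B4 at chr1:203626582-203626861 (plus strand) and ATP2B1 at chr12:89709337-89709616 (minus strand), the first of the 2 ATP2B1 windows.
ITPR1: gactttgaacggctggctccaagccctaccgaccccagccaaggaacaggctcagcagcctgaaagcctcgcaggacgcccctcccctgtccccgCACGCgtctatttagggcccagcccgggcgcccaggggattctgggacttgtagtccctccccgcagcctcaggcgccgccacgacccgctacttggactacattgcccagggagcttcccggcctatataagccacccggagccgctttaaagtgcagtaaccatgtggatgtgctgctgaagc
ATP2B4: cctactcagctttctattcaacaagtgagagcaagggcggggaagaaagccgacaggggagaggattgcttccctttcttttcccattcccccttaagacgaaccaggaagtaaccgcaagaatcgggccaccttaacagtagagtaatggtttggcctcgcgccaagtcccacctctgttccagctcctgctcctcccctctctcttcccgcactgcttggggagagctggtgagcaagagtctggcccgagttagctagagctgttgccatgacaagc
ATP2B1: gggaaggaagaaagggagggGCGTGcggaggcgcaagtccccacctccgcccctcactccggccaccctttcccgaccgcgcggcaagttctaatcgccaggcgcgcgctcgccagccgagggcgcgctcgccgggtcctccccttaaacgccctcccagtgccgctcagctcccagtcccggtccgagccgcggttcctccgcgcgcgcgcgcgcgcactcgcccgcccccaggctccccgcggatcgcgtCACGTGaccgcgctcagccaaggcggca

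The ITPR1 window held a single core, on the opposite strand, starting 155 bases before the start site. The ATP2B4 window held none. In the ATP2B1 window, GCGTG began 230 bases before the start, and a palindrome just after the start read as ACGTG on both strands, which overlap. Of all 35116 RefSeq windows of this length, 20.2% held ACGTG, 34.8% held GCGTG and 46.3% held at least 1 of the 2 on either strand. Windows were found for 7 of the 10 members, 12 in all, and 9 of the 12 held a core. STIM1 had 4 of these windows, and ATP2A2 and ATP2B1 had 2 each. Of the STIM1 windows 2 overlapped and held the same core, so the 12 are not independent. By gene, a core was found for ITPR1, STC2, ATP2A2, ATP2B1 and STIM1. ITPR3 had none in its window. ITPR2 and ORAI1 were not among those matched. Windows on chromosome 8, where STC1 lies, were left out of the search, so STC1 was not examined. A match is a description of letters and not a bound site.

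ITPR1 encodes the type 1 IP3 receptor and spans 4535031 to 4889524 on the plus strand of chromosome 3 (GRCh37). Levels are given as CPM, the counts of a gene scaled to a common library size, after TMM scaling of the 12 libraries together, a scale on which each gene can be compared between samples but not with other genes. In RKO cells ITPR1 had 36.7 and 20.2 CPM in the normoxic libraries and 328 and 206 CPM in the hypoxic ones. In A549 cells it had 13.2 and 12.6 CPM in normoxia and 51.3 and 71.5 CPM in hypoxia. In H460 cells it had 71.2 and 69.7 CPM in normoxia and 32.2 and 34.8 CPM in hypoxia. Both hypoxic libraries lay above both normoxic libraries in RKO and A549 cells and below them in H460 cells, so the conditions did not overlap in any line.

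The fitted log2 fold changes, hypoxia minus normoxia, were 3.17 ± 0.29 in RKO, 2.24 ± 0.22 in A549 and -1.09 ± 0.09 in H460 cells (± SE, n = 2 per condition). They correspond to 8.98-fold and 4.71-fold higher and 2.12-fold lower levels. In normoxia the order of the means was H460 with 70.4 ± 1.03 CPM, RKO with 28.4 ± 11.7 and A549 with 12.9 ± 0.40 (± SD, n = 2), and no libraries of neighbouring lines overlapped. In hypoxia the order was RKO, A549 and H460, with 267 ± 86.4, 61.4 ± 14.3 and 33.5 ± 1.79 CPM, so the line with the highest normoxic level had the lowest hypoxic level. With any of the 4 libraries of a line left out, the values ranged from 2.79 to 3.66 in RKO, 1.99 to 2.44 in A549 and -1.14 to -1.01 in H460 cells. The conditions did not overlap and the gene was chosen by these directions, so the ranges describe spread and cannot test the directions. EGOT, an antisense gene within the ITPR1 span, had 0 to 201 reads per library in these strand-specific libraries.

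**Figure D1:**
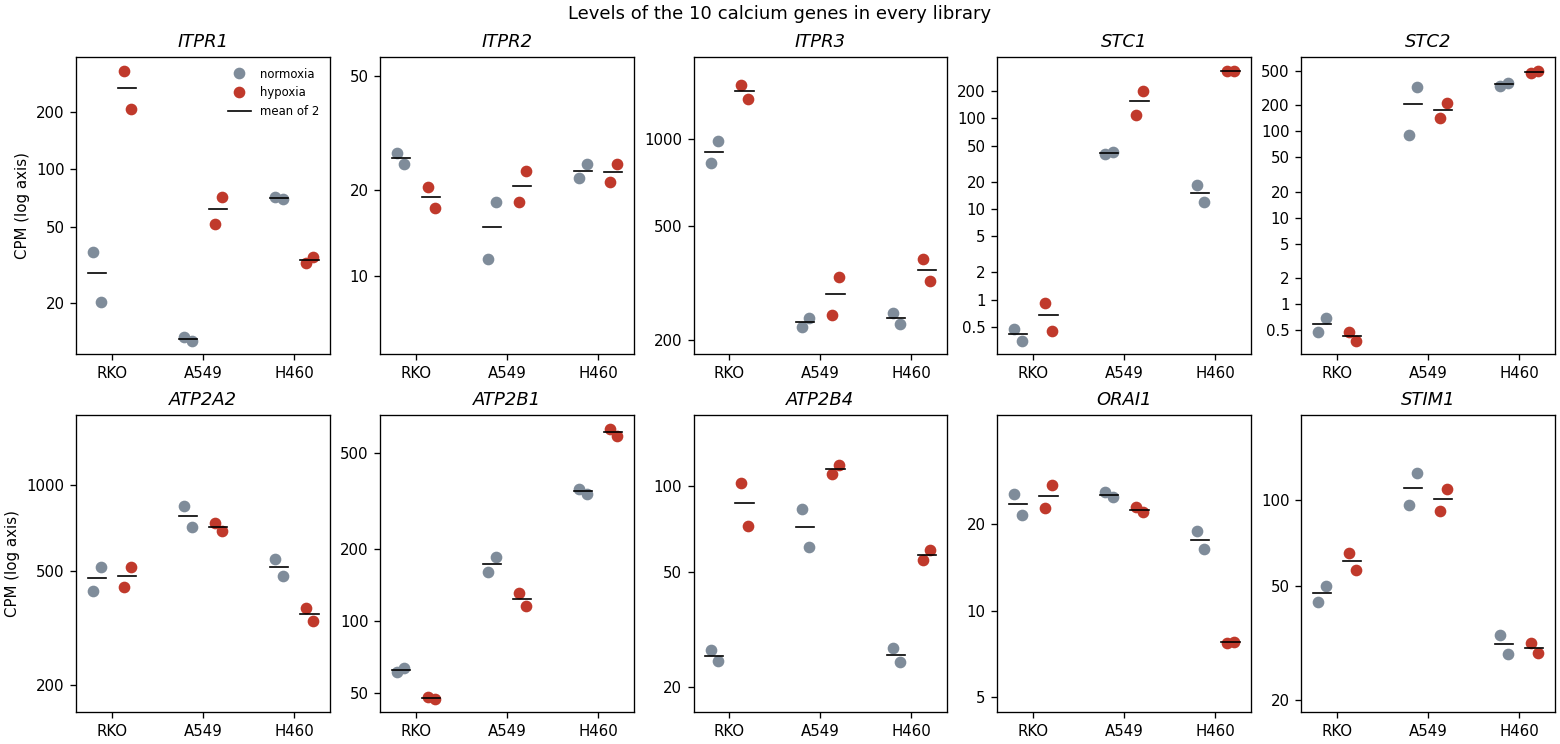
Levels of the 10 genes in CPM on logarithmic axes whose ranges differ between panels, with 1 point per library, grey for normoxia and red for hypoxia, and a bar at the mean of 2 libraries. ITPR1 was above its normoxic libraries in hypoxic RKO and A549 cells and below them in H460 cells, STC1 was highest in hypoxic H460 cells at 338 and 332 CPM, and both stanniocalcins stayed under 1 CPM in RKO cells.

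A gene was called when its adjusted p was below 0.1 and its fold change above 1.5 in the edgeR quasi-likelihood fit of that line across all genes. In RKO cells 2 of the 9 members other than ITPR1 were called higher and 0 lower, against 18.8% of 12817 genes called higher, 15.1% lower and 33.9% in either direction. In A549 cells 1 of 9 was called higher and 0 lower, against 2.22% and 0.456% of 14251 genes, and 2.67% in either direction. In H460 cells 3 of 9 were called higher and 1 lower, against 24.6% and 27.3% of 14080 genes, and 51.9% in either direction. ITPR1 is left out of these counts because it was chosen by its values. At an unadjusted p below 0.05, 2 of the 9 were lower in RKO and 1 in A549 cells by edgeR, and DESeq2 called 0 lower in both lines. The shares of all genes at these settings were not computed. The median log2 fold change of the 10 members was 0.17, 0.08 and 0.22 in RKO, A549 and H460 cells, beside 0.01, -0.01 and -0.04 over all genes tested. These medians include ITPR1, which was chosen by its values. Over the 9 other members the medians were 0.03, -0.14 and 0.48, so the sign in A549 cells depended on ITPR1. Scaled by library size alone in H460 cells, ATP2B1 was no longer called higher and ATP2A2 was called lower. The median of the 10 members, ITPR1 included, was then -0.13. That scaling moved the median of all genes by -0.35 in H460 cells. The hypoxic H460 libraries had TMM factors of 0.786 and 0.829, below the 0.963 to 1.12 of the other libraries. The part of this shift in the members' values was not tested beyond that rescaling. In bulk RNA, fewer cells that express a gene and less RNA per cell cannot be told apart.

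**Figure D2:**
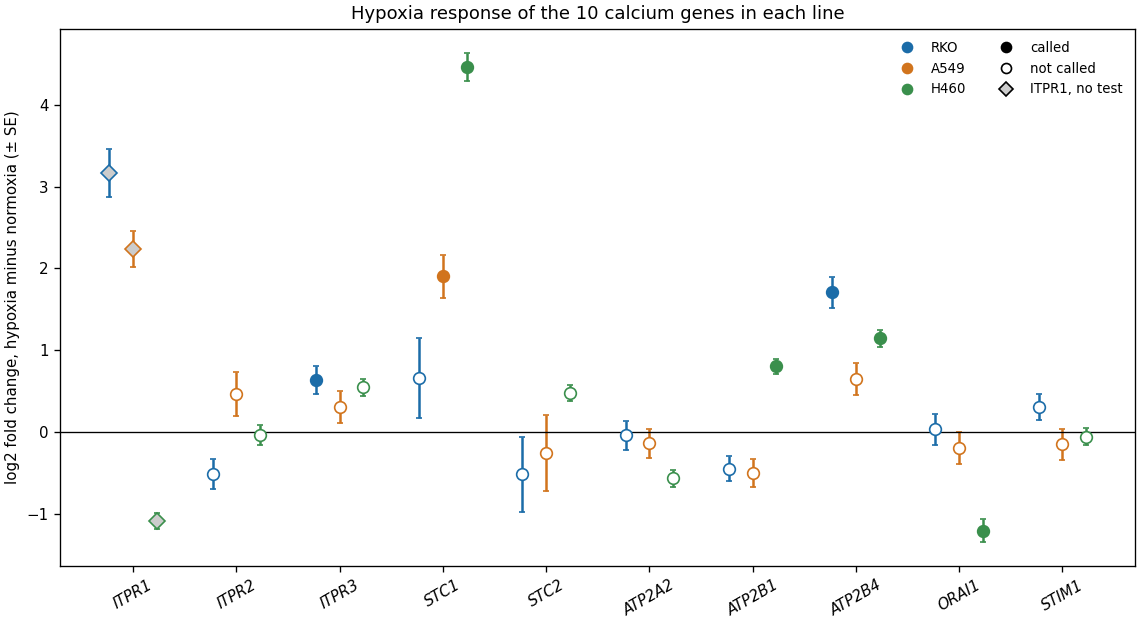
Log2 fold change of hypoxia over normoxia for each gene and line, with bars of 1 SE from the fit of that line (n = 2 per condition); filled circles were called and open circles were not, and ITPR1 is drawn as diamonds with no test. STC1 in H460 cells reached 4.46, ATP2B4 was called in RKO and H460 cells, and ORAI1 was called lower in H460 cells.

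The other IP3 receptors had smaller fold changes than ITPR1 in every line. ITPR1 was chosen by these values, which favoured that order, so it is not a finding. ITPR3, the type 3 receptor, had 825 and 983 CPM in normoxic and 1549.9 and 1387 CPM in hypoxic RKO libraries, which did not overlap. Its log2 fold change of 0.64 ± 0.18 was called higher (adjusted p = 0.0154), but without normoxic replicate 1 it was 0.52 and not called (adjusted p = 0.172). In H460 cells ITPR3 went from 248 and 227 to 382 and 320 CPM, a log2 fold change of 0.55 ± 0.10 that passed the adjusted p (0.000458) and not the fold change, and that was called at 0.69 without hypoxic replicate 2 but was 0.19 (adjusted p = 0.0673) with library size alone. In A549 cells ITPR3 had a log2 fold change of 0.31 ± 0.19 (adjusted p = 0.468). ITPR2, the type 2 receptor, had 27 and 24.6 CPM in normoxic and 20.5 and 17.3 in hypoxic RKO libraries. That log2 fold change of -0.51 ± 0.18 passed the adjusted p (0.0460) but not the fold change, which it passed at -0.59 without hypoxic replicate 1. The ITPR2 values were 0.46 ± 0.27 in A549 cells and -0.03 ± 0.12 in H460 cells (adjusted p = 0.422 and 0.814), and the libraries of the conditions overlapped in both lines.

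Compared per length by the deposited RPKM, ITPR3 was the most abundant IP3 receptor in all 12 libraries, with mean shares of summed ITPR1, ITPR2 and ITPR3 RPKM from 75.0% in normoxic H460 to 95.3% in normoxic RKO cells. The ITPR1 share went from 2.72 ± 1.38% to 13.5 ± 2.91% in RKO, from 4.52 ± 0.40% to 15.2 ± 0.23% in A549 and from 19.7 ± 0.60% to 7.50 ± 1.16% in H460 cells (± SD, n = 2). These shares carry the opposite directions of ITPR1 that led to its choice and are given without a test. The summed RPKM of the 3 receptors was 112 in normoxic and 205 in hypoxic RKO cells, 29.5 and 38.7 in A549 cells, and 36.4 and 35.4 in H460 cells. Shares within a library do not depend on how libraries are scaled, whereas sums of RPKM carry the library size.

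**Figure D3:**
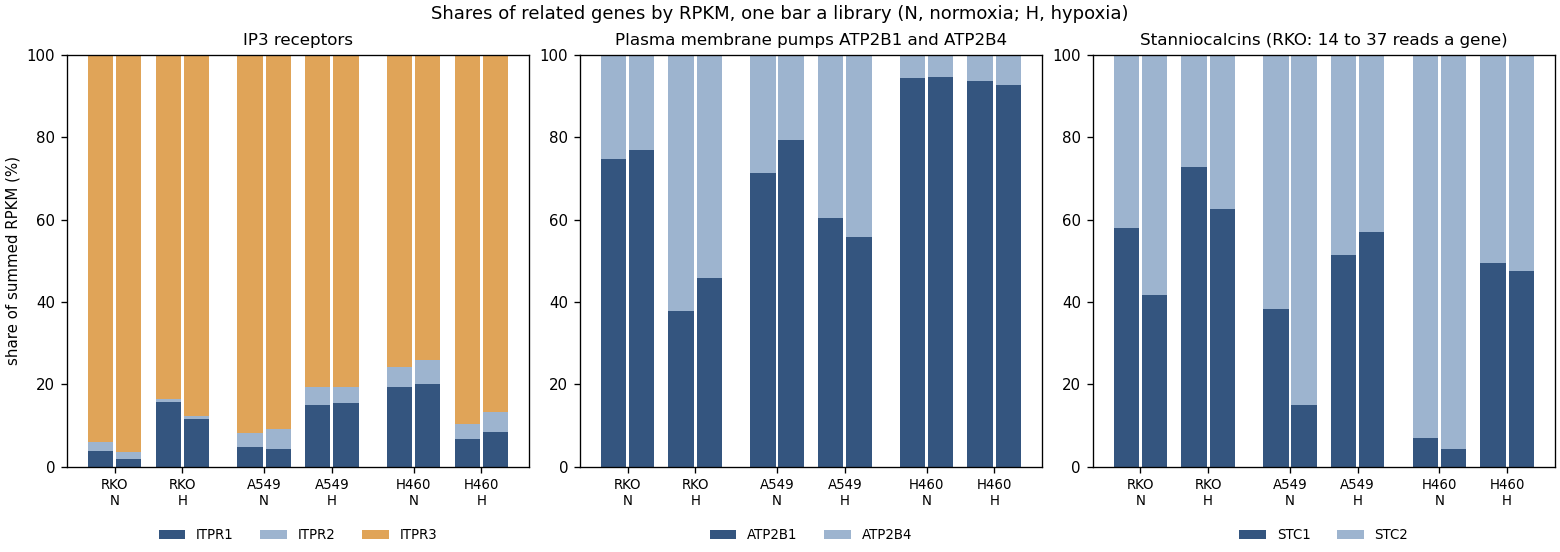
Shares of summed RPKM in percent for the 3 IP3 receptors, for the pumps ATP2B1 and ATP2B4, and for the 2 stanniocalcins, with 1 stacked bar per library, N for normoxia and H for hypoxia. ITPR3 took most of the receptor sum in every library, ATP2B4 took 58.3% of its pair on average in hypoxic RKO cells and 6.85% in hypoxic H460 cells, and the RKO stanniocalcin bars rest on 14 to 37 reads per gene.

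STC1 had the largest fold change among the members, in H460 cells. It had 18.4 and 11.9 CPM in normoxic and 338 and 332 CPM in hypoxic H460 libraries, which were 22-fold higher by the fit (log2 fold change 4.46 ± 0.17, adjusted p = 1.84e-09). In A549 cells STC1 rose from 40.4 and 42.4 to 110 and 203 CPM, with a log2 fold change of 1.90 ± 0.27 (adjusted p = 0.0121) and hypoxic libraries that differed from each other by more than the normoxic ones. In RKO cells STC1 had 18 and 14 reads in normoxia and 37 and 17 in hypoxia, a log2 fold change of 0.66 ± 0.49 that did not pass the test (adjusted p = 0.313).

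STC2, the second stanniocalcin, had no call in any line. In H460 cells it went from 336 and 363 to 477 and 507 CPM, and the libraries did not overlap (log2 fold change 0.48 ± 0.09, adjusted p = 0.000609, below the fold change threshold). That value was 0.13 (adjusted p = 0.225) with library size alone, and its adjusted p was 0.294 in the joint fit. In A549 cells the 2 normoxic libraries differed most, with 90.05 and 330.2 CPM, from 3780 and 13461 reads, and the hypoxic libraries lay between them at 144 and 211 CPM. The fitted value there was -0.26 ± 0.47 (adjusted p = 0.823), and it became 0.96 (adjusted p = 0.107) without normoxic replicate 2, so the sign rested on that library. In RKO cells STC2 had 14 to 27 reads per library. By RPKM, STC1 made up 5.67 ± 1.92% of the summed stanniocalcins in normoxic and 48.4 ± 1.40% in hypoxic H460 cells, and 26.6 ± 16.4% and 54.2 ± 4.09% in A549 cells.

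ATP2B4, a plasma membrane calcium pump, was higher in hypoxia in every line by its libraries, and called in RKO and H460 cells. It had 26.7 and 24.6 CPM in normoxic and 103 and 72.5 CPM in hypoxic RKO libraries (log2 fold change 1.71 ± 0.19, adjusted p = 0.000181). In H460 cells it went from 27.2 and 24.3 to 55.5 and 59.8 CPM (1.15 ± 0.10, adjusted p = 9.76e-07). In A549 cells it went from 83.1 and 61.4 to 110 and 118 CPM (0.65 ± 0.19, adjusted p = 0.161), a value that was called with the replicate number as a block (0.66 ± 0.14, adjusted p = 0.000694). The A549 call was also gained with DESeq2 (adjusted p = 0.0872), with the joint fit of 12 libraries (adjusted p = 0.0446), without normoxic replicate 1 (0.88, adjusted p = 0.0778) and without hypoxic replicate 1 (0.68, adjusted p = 0.0748). LINC00260 and SNORA77, on the same strand within the ATP2B4 span, had at most 50 and 8 reads.

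ATP2B1, the other plasma membrane pump measured here, had negative values in RKO and A549 cells and rose in H460 cells. It had 61.2 and 63.9 CPM in normoxic and 48.3 and 47.4 CPM in hypoxic RKO libraries, a log2 fold change of -0.45 ± 0.15 that passed the adjusted p (0.0371) and not the fold change. In A549 cells it went from 160 and 185 to 131 and 116 CPM (-0.50 ± 0.18, adjusted p = 0.219). In H460 cells it rose from 355 and 337 to 632 and 590 CPM (0.80 ± 0.09, adjusted p = 8.63e-06), although scaling by library size alone left 0.45, below the fold change threshold. By RPKM, the ATP2B4 share of the summed pair went from 24.2 ± 1.64% to 58.3 ± 5.66% in RKO, from 24.6 ± 5.78% to 41.97 ± 3.26% in A549 and from 5.47 ± 0.22% to 6.85 ± 0.65% in H460 cells. ATP2B1 thus held most of the pair in normoxia in all 3 lines and less than ATP2B4 in hypoxic RKO cells.

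ATP2A2 encodes SERCA2, the pump that loads the endoplasmic reticulum. In H460 cells it went from 552 and 482 to 373 and 335 CPM, and its log2 fold change of -0.56 ± 0.10 passed the adjusted p (0.000334) but fell short of the fold change threshold. It was called lower with library size alone (-0.92), without hypoxic replicate 1 (-0.62) and without normoxic replicate 2 (-0.70). In RKO and A549 cells the libraries of the conditions overlapped, with values of -0.04 ± 0.17 and -0.14 ± 0.18 (adjusted p = 0.878 and 0.744).

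ORAI1, the pore of the store-operated channel, had 18.9 and 16.3 CPM in normoxic and 7.72 and 7.75 CPM in hypoxic H460 libraries, from 534 and 557 reads and 183 and 223 reads. It fell by 1.202 ± 0.14 on the log2 scale there (adjusted p = 8.34e-06), or 2.30-fold. In RKO cells ORAI1 libraries overlapped (0.03 ± 0.19, adjusted p = 0.908), and in A549 cells they went from 25.8 and 24.9 to 22.9 and 22 CPM (-0.19 ± 0.20, adjusted p = 0.675). STIM1, the calcium sensor that opens ORAI channels, passed no test in any line in the fit reported. Its values were 0.31 ± 0.16 in RKO, -0.15 ± 0.19 in A549 and -0.05 ± 0.11 in H460 cells (adjusted p = 0.147, 0.744 and 0.665). Over the alternative fits the H460 value reached -0.41 and its adjusted p 0.00554, without a call.

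Whether the response differed between lines was tested as an interaction in a joint edgeR fit of all 12 libraries, with an adjusted p below 0.1 and ITPR1 left out. RKO and A549 cells differed in 2 of the 9 members, beside 14.6% of 15595 genes. RKO and H460 cells differed in 5 of 9, beside 37.6%. A549 and H460 cells differed in 3 of 9, beside 36.0%. The 3 comparisons share libraries. STC1 responded less in RKO than in H460 cells (difference of log2 fold changes -3.74 ± 0.63, adjusted p = 0.000694) and less in A549 than in H460 cells (-2.55 ± 0.37, adjusted p = 0.000365). ATP2B1 differed by -1.21 ± 0.19 between RKO and H460 cells and by -1.30 ± 0.18 between A549 and H460 cells (adjusted p = 0.000394 and 0.000316). ORAI1 differed by 1.28 ± 0.24 and 1.01 ± 0.24 in the same pairs (adjusted p = 0.00147 and 0.00689). These 6 differences concern responses of H460 cells against each other line.

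ATP2B4 rose more in RKO than in A549 cells (1.11 ± 0.25, adjusted p = 0.0181). A further 3 differences depended on single libraries. The ATP2B4 difference between RKO and H460 cells (0.61 ± 0.26, adjusted p = 0.0877) was lost on leaving out any of the 8 libraries other than hypoxic RKO replicate 2, with DESeq2 (adjusted p = 0.102) and with RLE size factors (adjusted p = 0.105). The ATP2A2 difference between RKO and H460 cells (0.57 ± 0.22, adjusted p = 0.0672) was lost without normoxic RKO replicate 1, hypoxic RKO replicate 2, normoxic H460 replicate 1 or either hypoxic H460 library (adjusted p = 0.120 to 0.218). The ITPR2 difference between RKO and A549 cells (-0.93 ± 0.30, adjusted p = 0.0720) was lost without either normoxic RKO library, hypoxic RKO replicate 2, normoxic A549 replicate 1 or hypoxic A549 replicate 2 (adjusted p = 0.110 to 0.199), and with library size alone (adjusted p = 0.118). With the replicate number as a block within each line, 6 of 9 members differed between A549 and H460 cells. No share of all genes was computed for that fit, so the count has none beside it. The gains were ITPR2 (0.52, adjusted p = 0.0575), ATP2A2 (0.43, adjusted p = 0.0249) and ATP2B4 (-0.48, adjusted p = 0.0991). STIM1 gained a difference between RKO and A549 cells (0.50, adjusted p = 0.0672) and between RKO and H460 cells (0.41, adjusted p = 0.0885). With library size alone ITPR2 (0.75, adjusted p = 0.0790) and ATP2A2 (0.69, adjusted p = 0.0317) also differed between A549 and H460 cells. STIM1 did so between RKO and A549 cells (0.63, adjusted p = 0.0924) and between RKO and H460 cells (0.80, adjusted p = 0.0144). ITPR3 passed the test in no pair, with differences from -0.24 to 0.38, but did so between RKO and H460 cells with library size alone (0.52, adjusted p = 0.0770). STC1 did not pass between RKO and A549 cells (-1.19 ± 0.59, adjusted p = 0.229), but did with DESeq2 (adjusted p = 0.0837), with no low-count filter (adjusted p = 0.0260) and without hypoxic A549 replicate 1 (adjusted p = 0.0742). STC2 passed in no pair, but did against H460 cells with no low-count filter (adjusted p = 0.0497 for RKO and 0.00959 for A549 cells). Its difference also passed between A549 and H460 cells without normoxic A549 replicate 1 (-1.39, adjusted p = 0.00165) and between RKO and A549 cells without normoxic A549 replicate 2 (-1.43, adjusted p = 0.0595). For ITPR1, untested, the response of RKO cells exceeded that of A549 cells by 0.98 ± 0.36 and H460 cells by 4.30 ± 0.37, and that of A549 cells exceeded H460 cells by 3.32 ± 0.37.

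**Figure D4:**
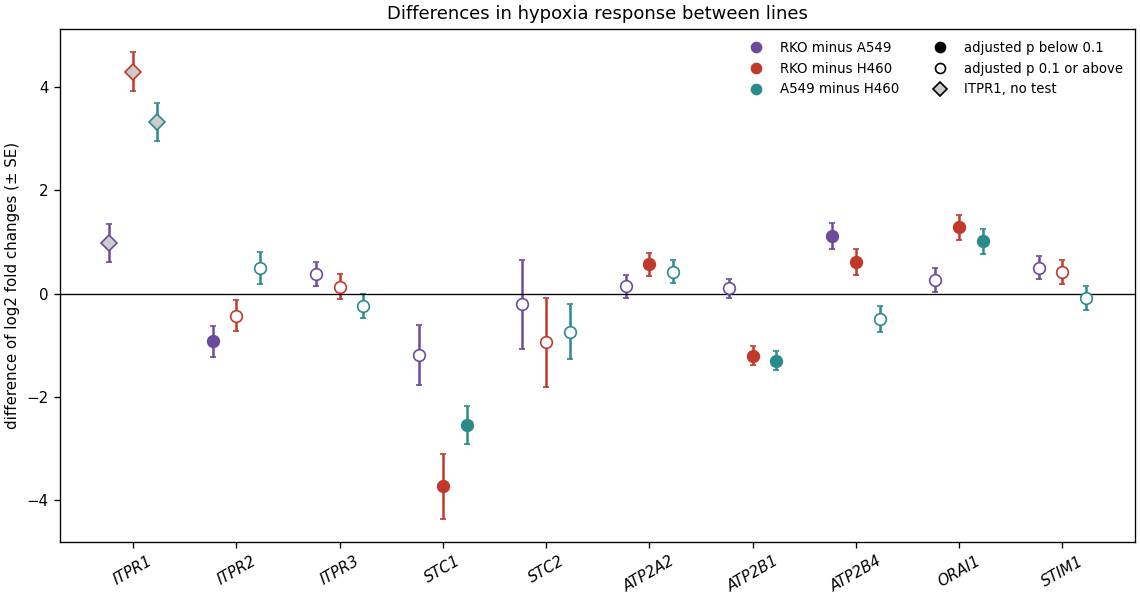
Differences between lines in the log2 fold change of hypoxia over normoxia, with bars of 1 SE from the joint fit of 12 libraries; filled circles had an adjusted p below 0.1 and ITPR1 is drawn as diamonds with no test. STC1 and ATP2B1 lay below 0 against H460 cells, at -3.74 and -1.21 for RKO, while ORAI1 lay above 0 at 1.28.

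The lines also differed before hypoxia. In normoxia 8 of the 9 members other than ITPR1 differed between RKO and A549 cells at the thresholds used for hypoxia, beside 60.2% of 15595 genes, 5 of 9 between RKO and H460 cells, beside 61.9%, and 6 of 9 between A549 and H460 cells, beside 52.1%. The stanniocalcins stood furthest apart. STC1 was 99.2-fold lower in RKO than in A549 cells and 36.2-fold lower than in H460 cells (adjusted p = 1.33e-09 and 2.23e-08). Between the lung lines STC1 was 2.74-fold higher in A549 cells (adjusted p = 0.000321). STC2 was 360-fold and 599-fold lower in RKO cells (adjusted p = 8.36e-09 and 4.18e-09), folds that rest on 18 and 27 reads in the normoxic RKO libraries. The log2 difference between RKO and A549 cells was -8.49 ± 0.58, and it was -9.15 without normoxic A549 replicate 1 and -7.27 without normoxic A549 replicate 2. A549 and H460 cells did not differ in STC2 at these thresholds (log2 difference -0.73 ± 0.38, adjusted p = 0.113), but did with the replicate block (-0.98, adjusted p = 0.00350) and without normoxic A549 replicate 2 (-1.95).

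ITPR3 was 3.93-fold higher in RKO than in A549 cells and 3.81-fold higher than in H460 cells (adjusted p = 1.64e-07 and 1.97e-07), and A549 and H460 cells did not differ (adjusted p = 0.844). ITPR2 was lower in A549 cells than in RKO cells (adjusted p = 0.00418) and H460 cells (adjusted p = 0.0169), both differences falling below the thresholds without normoxic A549 replicate 1, and the second also without normoxic H460 replicate 2. ATP2B1 increased in the order RKO, A549 and H460, with 62.6, 172 and 346 CPM, and each pair differed. ATP2B4 and STIM1 were highest in A549 cells, with 72.2 and 110 CPM, and ATP2B4 did not differ between RKO and H460 cells (25.6 and 25.8 CPM, adjusted p = 0.977). STIM1 was 1.51-fold higher in RKO than in H460 cells, just past the fold change threshold, which it missed with RLE size factors, with DESeq2, without normoxic RKO replicate 2 and without normoxic H460 replicate 2. ATP2A2 was 1.64-fold higher in A549 than in RKO cells and 1.501-fold higher than in H460 cells, and the second call was lost with the replicate block, without normoxic A549 replicate 1 and without normoxic H460 replicate 2. ORAI1 was not called in any pair, with 23.6, 25.3 and 17.6 CPM in RKO, A549 and H460 cells. It passed the adjusted p but not the fold change against H460 cells, being 1.34-fold higher in RKO (adjusted p = 0.0358) and 1.44-fold higher in A549 cells (adjusted p = 0.0140). Without normoxic H460 replicate 1 the log2 difference between A549 and H460 cells was 0.63, past the fold change threshold.

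Between genes, per length, the most abundant member in normoxia was ITPR3 in RKO cells at 107 ± 15.6 RPKM, ATP2A2 in A549 cells at 98.5 ± 10.4 RPKM and STC2 in H460 cells at 68.2 ± 4.73 RPKM. In H460 cells STC2 and ATP2A2 (64.7 ± 5.34 RPKM) did not lie apart beyond their spread. In hypoxic RKO cells ITPR3 reached 175 ± 4.12 RPKM and ITPR1 27.9 ± 7.56. In hypoxic H460 cells STC2, ATP2B1 and STC1 had 74.4 ± 5.97, 71.0 ± 0.744 and 69.7 ± 1.70 RPKM and were not apart beyond their spread, while ITPR1 had 2.64 ± 0.24 RPKM.

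Other calcium-handling genes were followed through a list of 106 symbols in 8 groups. Of the 73 tested in RKO cells, 9 were called higher and 6 lower, with a median log2 fold change of 0.12. Of 84 in A549 cells, 1 was called higher and 0 lower, with a median of 0.15, while 10 were higher and 0 lower at an unadjusted p below 0.05 by edgeR and DESeq2 called 3 higher and 0 lower. The replicate block gave 7 higher and 1 lower in A549 cells. The A549 counts ran from 0 to 8 higher and 0 to 2 lower when single libraries were left out, with 8 and 2 without hypoxic replicate 1, 0 higher without hypoxic replicate 2 or normoxic replicate 1, and 3 higher without normoxic replicate 2. Of 85 in H460 cells, 19 were called higher and 20 lower, with a median of 0.03, and 12 higher and 33 lower when scaled by library size alone. The background shares are those given above for each line, and they hold for the fit reported alone. None was computed for the unadjusted p, DESeq2, the replicate block, library size alone or the fits with a library left out. In the fit reported, no gene of the list was called in 1 direction in all 3 lines. Under some alternative fits a few were, among them ORAI3 and NFATC4.

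Among the store-operated entry genes, ORAI3, a relative of ORAI1, had 6.06 and 4.59 CPM in normoxic and 24.4 and 27.2 CPM in hypoxic RKO libraries (log2 fold change 2.22 ± 0.22, adjusted p = 0.000115). In H460 cells ORAI3 went from 13.2 and 9.65 to 45.3 and 43.0 CPM (1.94 ± 0.14, adjusted p = 1.83e-07), beside the fall of ORAI1. In A549 cells the ORAI3 value was 1.03 ± 0.26 (adjusted p = 0.112). It was called there with the block (0.99, adjusted p = 8.10e-05), with DESeq2 (adjusted p = 0.00937) and with the joint fit (adjusted p = 0.0191). It was also called with no low-count filter (adjusted p = 0.0330), but not with library size alone. STIM2, a relative of STIM1, fell in H460 cells by 1.24 ± 0.12 on the log2 scale (adjusted p = 2.97e-06). TRPC6, a cation channel gene, was the 1 call in A549 cells (1.64 ± 0.37, adjusted p = 0.0786), with a mean of 60.3 reads, and is named because it is the only one. In H460 cells TRPC6 was called lower (-0.94 ± 0.15, adjusted p = 0.000156), with a mean of 316 reads, and the difference between lines was not tested for this gene.

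The phospholipase C gene PLCD1, whose product makes IP3, rose in RKO cells by 1.133 ± 0.27 and in H460 cells by 2.00 ± 0.19 (adjusted p = 0.00778 and 1.86e-06). NFATC4, a transcription factor activated by calcineurin, rose by 2.06 ± 0.31 in RKO cells (adjusted p = 0.000782) and by 1.83 ± 0.09 in H460 cells (adjusted p = 1.35e-08). LETM1, of the mitochondrial inner membrane, fell by 0.92 ± 0.18 in RKO cells (adjusted p = 0.00291) and by 2.20 ± 0.10 in H460 cells (adjusted p = 5.41e-09). The IP3 receptor partner HOMER1, a scaffold, went from 25.1 and 20.7 to 13.9 and 12.2 CPM in RKO cells (-0.87 ± 0.20, adjusted p = 0.00575) and from 6.92 and 7.33 to 27.8 and 19.4 CPM in H460 cells (1.71 ± 0.17, adjusted p = 2.47e-06). In A549 cells the HOMER1 value was -0.48 ± 0.28 (adjusted p = 0.425). HOMER1 was named for its rank among called genes, and ITPR1 was chosen by its directions. Their opposite directions in RKO and H460 cells are therefore a description only. The difference between lines was not tested for HOMER1. HOMER2 fell by 1.33 ± 0.14 in H460 cells (adjusted p = 5.58e-06). ITPRIPL2, an IP3 receptor-interacting protein-like gene, fell by 0.83 ± 0.23 in RKO cells (adjusted p = 0.0153), and the call was lost without hypoxic replicate 1 (-0.47). RCN3, a calcium-binding protein of the endoplasmic reticulum lumen, rose by 1.90 ± 0.14 in H460 cells (adjusted p = 2.15e-07) and by 0.91 ± 0.30 in RKO cells (adjusted p = 0.0352), where the call was lost without hypoxic replicate 2 (0.55) or normoxic replicate 1 (adjusted p = 0.186).

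The 8 groups are given for H460 cells beside the shares of all genes, 24.6% called higher and 27.3% lower in the fit reported. No such share was computed for library size alone. Of the luminal calcium-binding proteins 6 of 11 were called higher and 0 lower, and with library size alone 3 and 2. Of the store-operated entry genes 2 of 9 were higher and 5 lower under both scalings. The mitochondrial uptake genes had 3 higher and 4 lower of 11, the IP3 receptor partners 1 and 4 of 11, and the release channels and IP3 production genes 2 and 4 of 15. The calmodulin, calcineurin and NFAT genes had 3 higher and 2 lower of 18, the pumps and exchangers 1 and 1 of 7, and the stanniocalcin partners 1 and 0 of 3. No group was tested as a set.

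**Figure D5:**
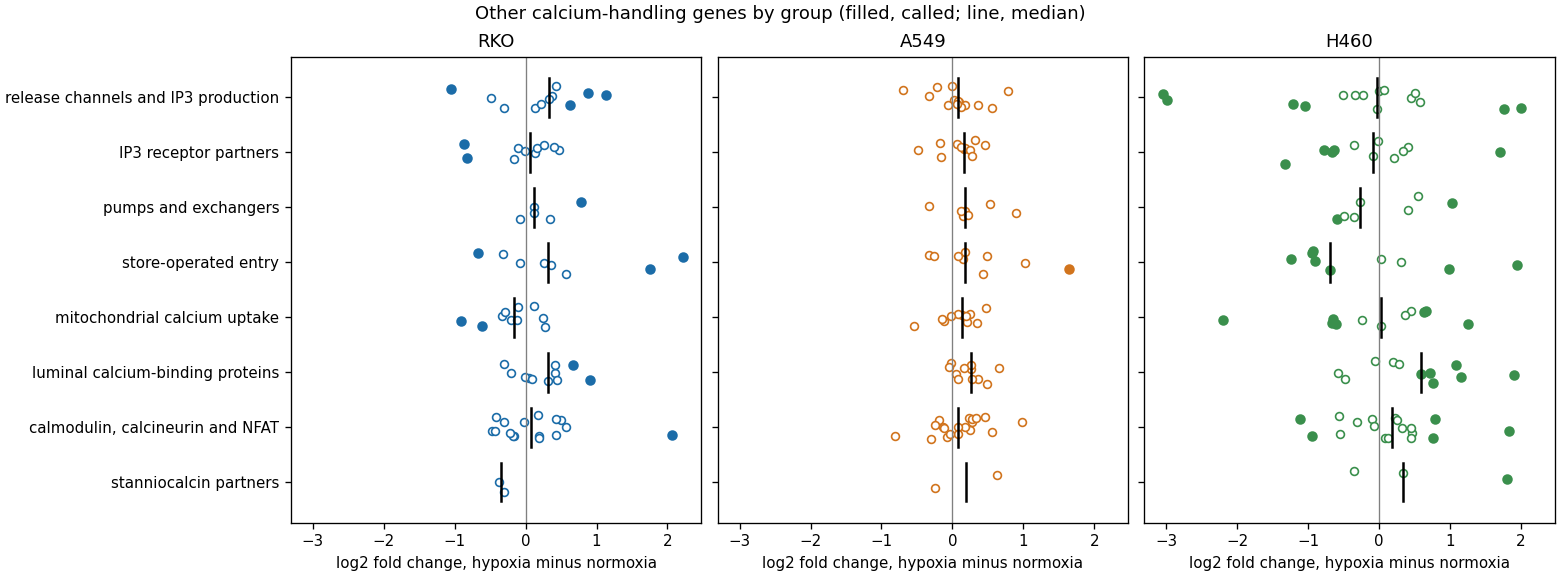
Log2 fold change of hypoxia over normoxia for the other calcium-handling genes by group and line, on a shared axis, with 1 circle per gene, filled where called, and a vertical bar at the group median. In H460 cells the group medians ran from -0.69 for the store-operated entry genes to 0.59 for the luminal calcium-binding proteins, while A549 cells had 1 call.

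The genes whose log2 CPM followed ITPR1 most closely over the 12 libraries, among 12423 genes with a mean of at least 100 counts, were ALDH7A1 (Pearson r = 0.90), GAS6 (0.89), TRAF5 (0.88), PNPLA3 (0.87) and ANXA6 (0.86). These r are descriptions over libraries that share lines and conditions. ALDH7A1, an aldehyde dehydrogenase, had group means of 82.9 and 106 CPM in normoxic and hypoxic RKO cells, 80.0 and 94.7 in A549 and 91.8 and 81.5 in H460 cells, a far smaller range than that of ITPR1. Of the other members ITPR3 had the highest r with ITPR1, 0.55, and STC2 the lowest, -0.40.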

How the data were processed

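Strand-specific poly(A)+ libraries of RKO, A549 and H460 cells, 2 per group, were sequenced by the authors. The deposited values are read counts per gene, made on GRCh37 with TopHat2 2.0.13, Bowtie2 2.2.3.0, SAMtools 1.3.1, Picard 1.129 and HTSeq 0.6.1 after FastQC 0.11.5 (submitters' processing notes), and RPKM, which the authors deposited as counts per kilobase of gene length per library total. Total counts were 27350424 to 41757584. No per-sample column was left unused.

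Genes over 0.5 CPM in 2 libraries of a fit were tested with the edgeR 4.0.16 quasi-likelihood test after TMM scaling in R 4.3.3, per line for hypoxia and over 12 libraries for differences between lines, with Benjamini-Hochberg adjustment over all genes tested. CPM come from the scaling of 12 libraries together and folds from the fit of each line, so their ratios differ slightly. The fits were tested on simulated data. Alternatives were DESeq2 1.42.0, RLE size factors, library size alone, no low-count filter, a replicate block, the joint fit, no fold change minimum and each library left out. RefSeq promoters outside chromosome 8 were matched by symbol, and figures were drawn with matplotlib 3.10.9.

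Named genes were the 10 members, toolkit genes called in 1 direction in all lines, the 3 highest and 3 lowest called toolkit genes per line with a mean of at least 100 counts, and the 5 genes most like ITPR1. The members and lists were chosen with earlier results of these data known. All 106 toolkit symbols matched, 6 of them by an older symbol.

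The labels call the replicates independent and give no cultures, so p-values measure the spread between these samples. Same-numbered libraries deviated together (correlation 0.26 in RKO, 0.37 in A549 and 0.11 in H460 cells). The numbers may therefore pair the libraries, but this rests on the data alone, and 2 libraries per condition cannot settle it. The fits reported did not use such a pairing. The replicate block, which uses it, was run as an alternative. Replicates differed by more than sampling noise, with chi-square per degree of freedom of 9.60 to 72.0, and the biological coefficient of variation was 15.0%, 18.9% and 7.91% in RKO, A549 and H460 cells. The result of 1 line marker is not reported here.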

Additional observations from a re-analysis of the deposited data

Results flagged for a closer look

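Several members responded to hypoxia differently between lines by the interaction test of the joint edgeR fit (difference of log2 fold changes, first line minus second). Between RKO and H460 cells these were STC1 (-3.74), ATP2B1 (-1.21), ORAI1 (1.28), ATP2B4 (0.61) and ATP2A2 (0.57). Between A549 and H460 cells they were STC1 (-2.55), ATP2B1 (-1.30) and ORAI1 (1.01). Between RKO and A549 cells they were ATP2B4 (1.11) and ITPR2 (-0.93). Of these, ATP2B4 and ATP2A2 between RKO and H460 cells and ITPR2 between RKO and A549 cells no longer passed when single libraries were left out. Both hypoxic libraries of ITPR1 lay above both normoxic ones in RKO and A549 cells and below them in H460 cells, with differences of 4.30 and 3.32 against H460 cells. The ITPR1 difference was not tested, because the gene was chosen for this pattern.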

How the results depend on the processing

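Depth limits the stanniocalcins in RKO cells, where 14 to 37 reads per library stand behind each value, and with 2 libraries per group a single library can decide a call. The replicate block changed calls only where its value stands in the report, except that among the named toolkit genes NFATC4 (1.00), PLCD1 (0.74) and RCN3 (0.64) were also called with it in A549 cells. Shares of all genes were computed for the fit reported only, so the counts under other settings have no share beside them. With no fold change minimum, 2 members were called lower in RKO and 5 higher in H460 cells. The toolkit counts were then 18 higher and 10 lower in RKO and 38 higher and 31 lower in H460 cells. The toolkit count called higher in A549 cells was 3 with DESeq2, 4 with the joint fit, 0 with library size alone, 4 with no low-count filter and 7 with the block, and the count called lower was 1 with no low-count filter and 1 with the block. In H460 cells library size alone gave 12 toolkit genes higher and 33 lower. The members other than ITPR1 that differed in response between A549 and H460 cells numbered 5 with library size alone and 6 with the block. Leaving out single libraries gave 0 to 1 members lower in RKO, 0 to 8 toolkit genes higher and 0 to 2 lower in A549, and 1 to 3 members with another response in RKO against A549, 3 to 4 in RKO against H460 and 3 to 5 in A549 against H460 cells.

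Signs turned only for values that were not called in the fit reported, although STC2 and STIM2 each passed with 1 library left out, STIM2 in RKO cells at -0.65 without hypoxic replicate 2 (adjusted p = 0.0208). ATP2A2 in RKO cells became 0.045 with library size alone and 0.0196 with the joint fit. With library size alone the difference in response between A549 and H460 cells became 0.018 for ITPR3 and 0.17 for STIM1, and the normoxic difference of ATP2B4 between RKO and H460 cells became 0.022. With single libraries left out, the log2 fold change in hypoxia ran from -0.15 to 0.084 for ITPR2 in H460, -0.91 to 0.96 for STC2 in A549, -0.17 to 0.12 for ATP2A2 in RKO, -0.099 to 0.21 for ORAI1 in RKO, -0.32 to 0.045 for STIM1 in A549, -0.20 to 0.025 for STIM1 in H460 and from -0.65 to 0.0063 for STIM2 in RKO cells. With single libraries left out, the difference in normoxia level ran from -0.11 to 0.016 for ITPR3 in A549 against H460, -0.10 to 0.071 for ATP2B4 in RKO against H460 and from -0.24 to 0.0080 for ORAI1 in RKO against A549 cells. With single libraries left out, the difference in hypoxia effect ran from -1.43 to 0.44 for STC2 in RKO against A549, -1.39 to 0.49 for STC2 in A549 against H460, -0.0053 to 0.20 for ATP2B1 in RKO against A549 and from -0.26 to 0.10 for STIM1 in A549 against H460 cells. The alternatives for differences between lines and for toolkit genes were added after the data were seen.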
